A study of Mus musculus with 6 samples.

Results

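The levels of 7 Sox genes, Sox5, Sox6, Sox8, Sox9, Sox4, Sox11 and Sox12, were examined in rib cage RNA of mouse embryos. The members are given by name and were matched by symbol to the gene IDs of the count table. All 7 had a single ID among the 55487 in that table, and all 7 were among the 26596 genes with enough reads to be tested. RNA-Seq had been performed on 6 libraries, 1 per embryo, from rib cages at 16.5 dpc that were cleaned of connective tissue. The 3 controls (E420, E434 and E435) are labelled wild type and, by the study's methods, lacked the cre transgene. The 3 mutants (E423, E433 and E440) are labelled Col2-cre;Foxc1-/-;Foxc2-/-, and both floxed forkhead genes were deleted where the Col2 promoter drives Cre. At an earlier age, the study saw a Cre reporter throughout the developing skeleton. The layers it named, growth plate chondrocytes, perichondrium and the primary ossification centre, were those of the hind limb. Embryos were on a mixed background, and the litter of each is not given, so p-values measure the spread between these embryos only.

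Sox proteins bind DNA through an HMG box. SOX9 is the master regulator of cartilage: it is required for chondrocyte formation and switches on Col2a1 and Acan, which encode type II collagen and aggrecan, the main fibre and proteoglycan of cartilage matrix. SOX5 and SOX6 lack an activation domain and act beside SOX9 on the same matrix genes. SOX8 belongs with SOX9 to the SoxE group. SOX4, SOX11 and SOX12 form the SoxC group, which is found in mesenchymal and neural progenitors and has been placed upstream of Sox9 in skeletal progenitors. Both forkhead genes are active around and within growing cartilage, and the comparison asks whether the chondrogenic Sox genes differ when both are missing.

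A stretch of 27 bases near the start of the HMG box code is shown, beginning at the amino acid motif RPMNAF. Reads of 42 bases can only be given to 1 family member where the members differ. The sequences were read from transcripts on GRCm38, each from the coding strand and within a single exon, and capitals mark bases that differ from Sox9 at the same place.

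Sox9: cgacccatgaacgccttcatggtgtgg
Sox8: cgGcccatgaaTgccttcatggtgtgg
Sox5: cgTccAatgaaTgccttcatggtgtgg
Sox6: cgaccAatgaaTgcGttcatggtTtgg
Sox4: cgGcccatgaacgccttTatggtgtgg
Sox11: cgGcccatgaacgccttcatggtgtgg
Sox12: cgGccGatgaacgcGttcatggtgtgg

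These lie at chr11:112782903-112782929 on the plus strand for Sox9, and on the minus strand at chr17:25570196-25570222 for Sox8, chr6:143841247-143841273 for Sox5, chr7:115489736-115489762 for Sox6, chr13:28952815-28952841 for Sox4, chr12:27342232-27342258 for Sox11 and chr2:152397549-152397575 for Sox12. In the transcripts read, they fall in exon 1 of 3 in Sox9 and Sox8, exon 13 of 15 in Sox5, exon 14 of 16 in Sox6 and the only exon of Sox4, Sox11 and Sox12. Sox11 differed from Sox9 at 1 of the 27 bases, Sox8 and Sox4 at 2, Sox5 and Sox12 at 3, and Sox6 at 4. Over 225 bases from the same start, Sox9 was 84.9% identical to Sox8 and 72.4% to Sox11. Sox5 was 82.2% identical to Sox6, and Sox4 was 89.3% identical to Sox11.

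This likeness left few reads that could belong to several members. Of the 4754 different stretches of 42 bases in the Sox4 transcript, 7 also occurred in Sox11. In all, 2582 of them, or 54.3%, occurred in another gene, nearly all in Gm26735, a noncoding gene on the opposite strand in the older annotation used for sequences. Its ID is not among those of the count table, where no other gene overlaps the exons of Sox4. Sox9 shared 3 of its 4094 stretches with Sox10 and none with another member. An antisense gene, 2810468N07Rik, overlaps 329 of the 3118 exon bases of Sox8, and Sox5os1 overlaps 1330 of the 14376 exon bases of Sox5. Reads over both genes of such a pair were left out of the counts, and Sox8 had between 1.79 and 1.86 counts per RSEM fragment against 1.95 to 1.96 over all genes.

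The deletion and the tissue were checked first. Foxc1 stood at 23.1, 36.9 and 24.2 CPM (counts per 1000000 counts of a library, scaled by TMM) in E420, E434 and E435 and at 3.56, 9.61 and 3.51 CPM in E423, E433 and E440. Foxc2 ran from 1.99 to 4.83 CPM in controls and from 0.649 to 1.14 CPM in mutants. Library totals ran from 37853988 to 47794799 counts, and the lowest count of any member in any library was 193. All 10 chondrocyte markers and all 10 osteoblast markers were detected in every library.

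Cartilage content varied widely within each group. Col2a1 stood at 631, 14427 and 582 CPM in E420, E434 and E435, and at 177, 4927 and 162 CPM in E423, E433 and E440. Acan stood at 39.5, 646 and 37.1 CPM in the controls and at 19.9, 258 and 19.6 CPM in the mutants. Control E434 and mutant E433 therefore stood far above the other 4 libraries, by over 10 times for Col2a1 within their own groups. The cartilage level of a library, defined as the mean log2 CPM of Col2a1 and Acan centred over the 6 libraries, averaged 0.70 ± 2.50 (SD, n = 3) in controls and -0.70 ± 2.47 (SD, n = 3) in mutants. The 2 remaining libraries of each group were close to each other: the median difference between genes was 0.0735 on the log2 scale between E420 and E435 and 0.0563 between E423 and E440, against 0.134 to 0.244 for every other pair. Their squared difference, in units of the counting variance, had a mean over genes of 6.74 for E420 and E435 and 2.41 for E423 and E440, and a median of 1.06 and 0.691, where counting error alone gives a median of 0.455. Each library was kept as 1 sample, and p-values measure the spread between these libraries, which may in part be technical. With the close libraries summed, 0 genes were called by group in place of 17, and 4 at equal cartilage level in place of 275. In bulk RNA, fewer cells of a type and less RNA per cell cannot be told apart.

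Sox9 and Sox5 were the members that differed most between libraries. Sox9 stood at 20.997, 105 and 19.2 CPM in control E420, E434 and E435, and at 19.7, 70.3 and 19.4 CPM in mutant E423, E433 and E440. In both groups the library rich in Col2a1 was the high one, and the other 4 lay within 19.2 to 20.997 CPM whatever the genotype. Sox5 stood at 5.37, 25.0 and 5.61 CPM in controls and at 4.64, 16.1 and 4.18 CPM in mutants, in the same order. From the lowest to the highest library, Sox9 spanned 5.50-fold and Sox5 5.98-fold, against 88.8-fold for Col2a1 and 32.9-fold for Acan.

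**Figure D1:**
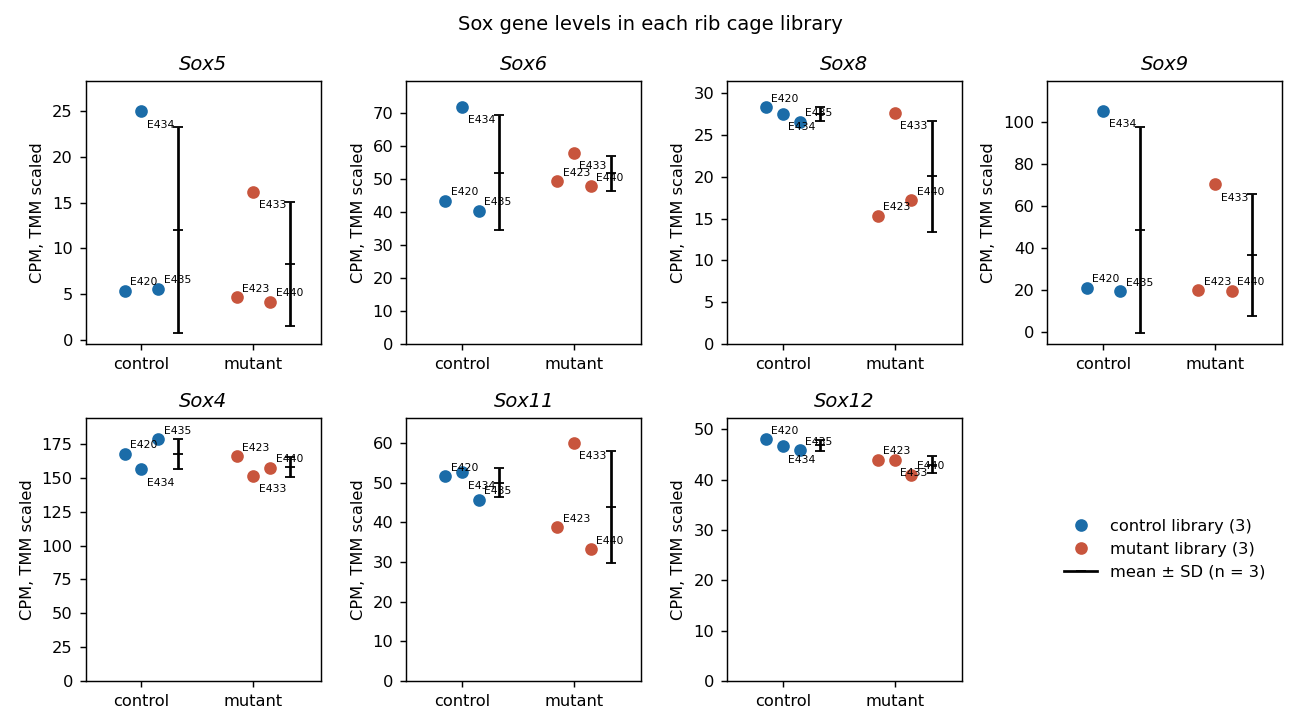
TMM-scaled CPM of the 7 Sox genes in each library, with controls in blue and mutants in red. Bars give the mean ± SD of 3 libraries. Sox5 and Sox9 are high in E434 and E433, Sox8 is low in E423 and E440, and Sox4 and Sox12 vary by at most 1.18-fold over the 6 libraries.

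Sox6, the partner of Sox5, varied far less. Its levels were 43.4, 71.9 and 40.4 CPM in controls and 49.4, 57.8 and 47.8 CPM in mutants. E434 and E433 were again highest, but every mutant library was above E420 and E435. Sox6 spanned 1.78-fold in all.

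Sox8 separated the mutants among themselves. It stood at 28.3, 27.5 and 26.6 CPM in E420, E434 and E435, a spread of 0.879 CPM (SD, n = 3), and at 15.3, 27.7 and 17.2 CPM in E423, E433 and E440. Mutant E433 lay among the controls, and the other 2 mutants lay below all of them. Sox11 showed the same division, with 51.6, 52.6 and 45.8 CPM in controls and 38.8, 59.98 and 33.2 CPM in mutants, where E433 was the highest library of all.

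Sox4 and Sox12 were the flattest members. Sox4 stood at 168, 156 and 178 CPM in controls and at 166, 151 and 158 CPM in mutants, with overlapping groups. Sox12 stood at 48.1, 46.6 and 45.9 CPM in controls and at 44.0, 43.9 and 41.0 CPM in mutants. In CPM, Sox12 was the only 1 of the 7 whose groups did not overlap, and the same was true of 8.21% of all tested genes in that direction. In TPM the groups of Sox12 overlapped, with mutant E433 at 14.83 above control E435 at 14.21.

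Compared with controls, none of the 7 members changed in mutants under the call rule used here, an adjusted p below 0.1 in edgeR's quasi-likelihood test and a change of 1 or more on the log2 scale. This rule called 17 of 26596 genes, or 0.0639%, and 0.0902% passed the limit on the adjusted p alone. At an unadjusted p below 0.05, 0 of 7 members passed, as against 10.6% of all genes, and DESeq2 also gave 0 of 7 at an adjusted p below 0.1, beside 4.34% of the genes to which it gave one. All 7 estimates were below 0, with a median log2 fold change of -0.18, beside 0.01 over all tested genes. The same test gave Foxc1 itself, which the mutants lack in Cre-expressing cells, a log2 fold change of -2.34 ± 0.45 (SE) and an adjusted p of 0.235, so it could miss changes of that size here.

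The estimates for Sox9 and Sox5 carried the widest error. Sox9 had a log2 fold change of -0.41 ± 0.82 (SE) with an adjusted p of 0.886 in edgeR, and its 95% interval ran from -2.39 to 1.56, which allows a change of over 2-fold in either direction. Sox5 had -0.53 ± 0.79 (SE) with an adjusted p of 0.837. In both genes the spread between E434 or E433 and the rest of its group exceeded the difference between the groups. Without control E434, both estimates turned positive, to 0.86 for Sox9 and 0.60 for Sox5.

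The other members were bounded more tightly. Sox4 had a log2 fold change of -0.08 with a 95% interval from -0.28 to 0.11, and Sox12 had -0.13 with an interval from -0.29 to 0.04. These intervals leave out a 2-fold change. Sox6 had -0.01 ± 0.23 (SE), Sox11 had -0.18 ± 0.22 (SE) and Sox8 had -0.45 ± 0.22 (SE), with adjusted p of 0.996, 0.793 and 0.524 in edgeR. The interval of Sox8, from -0.99 to 0.08, was the one furthest to the negative side relative to its error among these 3.

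Sox8 and Sox11 depended on mutant E433. Without it, Sox8 had a log2 fold change of -0.75 ± 0.09 (SE) and an adjusted p of 0.0167 in edgeR, and Sox11 had -0.47 ± 0.10 (SE) and 0.0602, where 13.4% of all genes had an adjusted p below 0.1. Without both E434 and E433, which leaves the 2 close libraries of each group, 5 of 7 members had an adjusted p below 0.1, beside 37.6% of all genes. Sox8 was then lower (-0.75), as were Sox11 (-0.43), Sox5 (-0.32) and Sox12 (-0.14), while Sox6 was higher (0.22) and Sox9 had -0.03 with an adjusted p of 0.803 in edgeR. All of these were smaller than 1 on the log2 scale.

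Markers of other tissues moved with that division. In E423 and E440, where Sox8 and Sox11 were low, the 9 keratinocyte genes summed to 27975 and 28047 CPM, against 3264 in E433 and 20.3 to 6294 in controls. The 10 muscle genes summed to 33620 and 32885 CPM in E423 and E440, 18854 in E433 and 15022 to 24186 in controls. Members of this list differed: Myod1, a myogenic factor, stood at 52.8 and 50.9 CPM in E423 and E440, 68.7 in E433 and 71.2 to 75.5 in controls, and Myog was likewise lowest in E423 and E440, at 242 and 239 CPM. The 9 erythroid genes summed to 9370 and 9514 CPM in those 2 libraries, 18222 in E433 and 22589 to 27791 in controls. E433 thus lay within the range of the controls for the summed keratinocyte and muscle genes, and between the controls and the other mutants for erythroid genes. The 8 hepatocyte genes, whose defining transcripts come from liver, summed to 643 CPM in E433 and to 30.7 to 50.9 CPM in the other 5. The 7 Schwann cell genes ran from 164 to 181 CPM in mutants and from 139 to 146 in controls. The 10 osteoblast genes divided by genotype instead: they summed to 7987 to 8380 CPM in mutants and 11506 to 16628 CPM in controls, and 9 of 10 had all mutants below all controls, beside 8.21% of all genes. Their median log2 fold change was -1.42, and 1 of 10, Phex, was called in edgeR, beside 0.0639% of all genes. The part of these tissues in the levels of Sox8 and Sox11 was not tested.

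**Figure D2:**
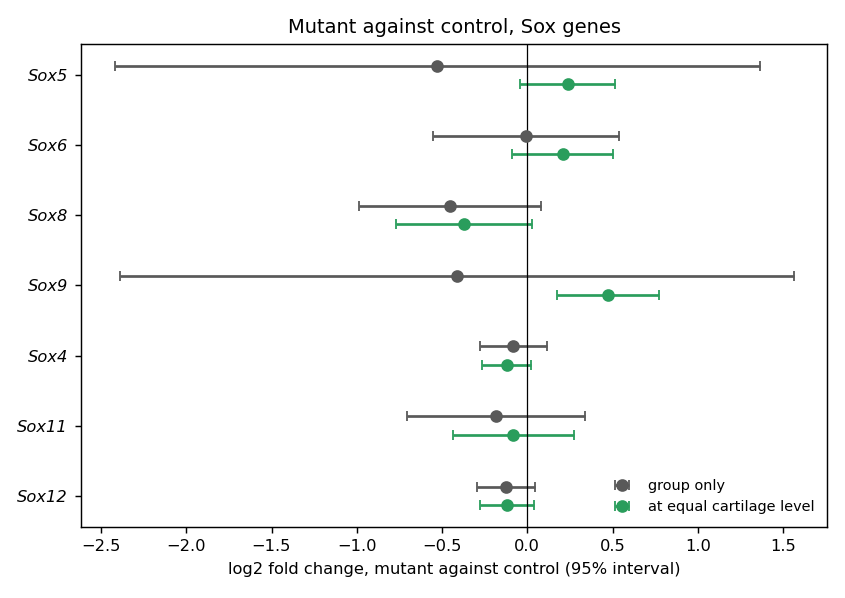
Log2 fold change of each Sox gene in mutants against controls with its 95% interval, from the fit by group alone (grey) and from the fit at equal cartilage level (green). Intervals of Sox5 and Sox9 shrink when the cartilage level is in the fit, and the estimate of Sox9 moves from -0.41 to 0.47.

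Because cartilage content differed within each group, the level of each gene was next fitted on the cartilage level and the genotype together. The slope gives the log2 change of a gene per doubling of the cartilage level. The fit assumes a straight line with the same slope in both groups. With a close pair and a single cartilage-rich library in each group, that form could not be checked. Sox9 and Sox5 rose with it, at slopes of 0.49 ± 0.03 (SE) and 0.47 ± 0.03 (SE), with adjusted p of 0.000289 and 0.000275 in edgeR. On the fitted line, a doubling of cartilage level thus came with a 1.41-fold higher Sox9 and a 1.39-fold higher Sox5. Sox6 rose with a shallower slope of 0.12 ± 0.03 (SE) and an adjusted p of 0.0419.

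In all, 3 of 7 members rose with cartilage level past an adjusted p of 0.1, and so did 7.10% of all tested genes, with 15.4% passing in either direction. At an unadjusted p below 0.05, 4 of 7 members passed, Sox11 among them, beside 25.0% of all genes. Sox11 and Sox8 had slopes of 0.10 and 0.09 with adjusted p of 0.132 and 0.213 in edgeR. DESeq2 passed 4 of 7, Sox11 in addition with an adjusted p of 0.0435, beside 24.9% of the genes to which it gave one. In edgeR Sox11 also passed with no low-count filter, at 0.0863, and without E434, at 1.84e-06 and a slope of 0.17, as did Sox8 without E434, at 4.37e-06 and a slope of 0.18. Sox4 and Sox12 had slopes of -0.03 and 0.00, with 95% intervals from -0.06 to 0.01 and from -0.03 to 0.04. The intervals of Sox4 and Sox12 thus did not reach the slopes of Sox9 and Sox5. Nor did those of Sox6, Sox8 and Sox11 in the fit to all libraries, which each ended at 0.19. The slope of Sox9 and Sox5 was past the limit without any 1 library, between 0.43 and 0.55 for Sox9 and between 0.44 and 0.51 for Sox5. That of Sox6 had an adjusted p of 0.138 without E420, 0.137 without E435, 0.116 without E440 and 0.395 with the close libraries summed, and its slope was 0.06 without E434.

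**Figure D3:**
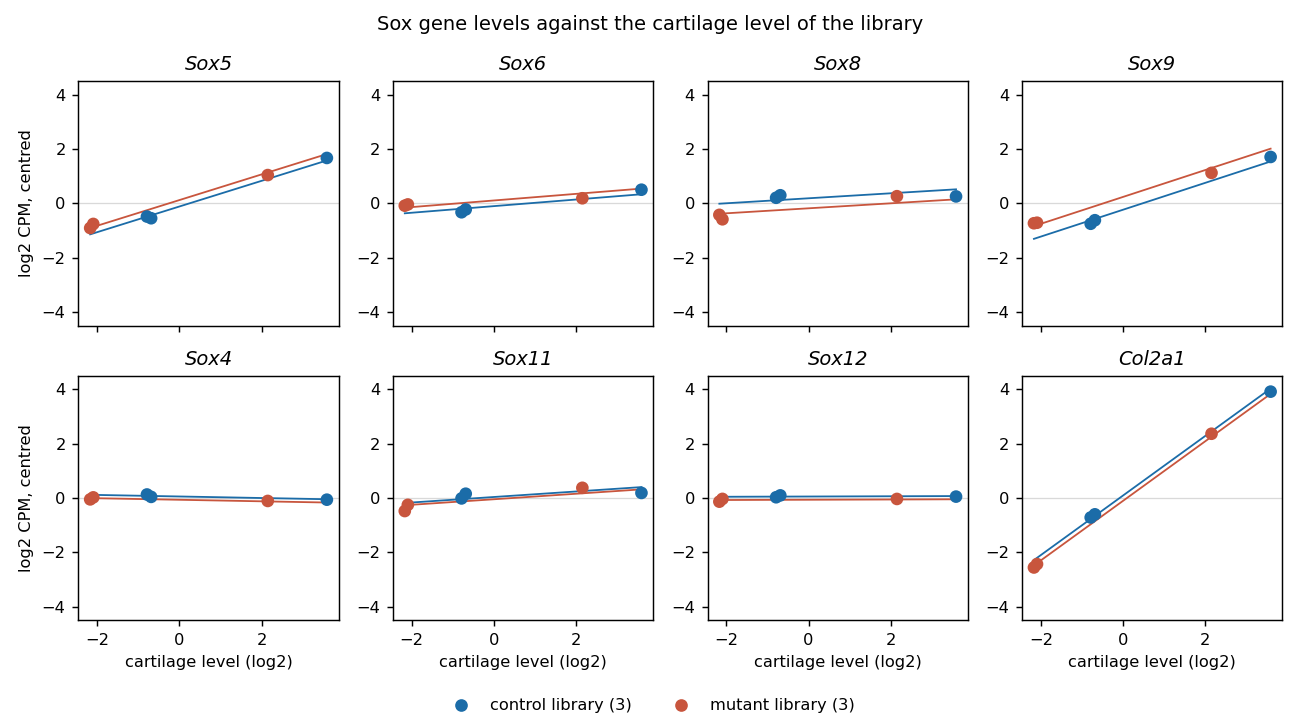
Centred log2 CPM of the 7 Sox genes, and of Col2a1 for scale, against the cartilage level of each library (mean log2 CPM of Col2a1 and Acan, centred). Lines are the fitted slopes for controls (blue) and mutants (red). Sox9 and Sox5 climb with slopes near 0.49 and 0.47, Sox4 and Sox12 are flat, and Col2a1, which helps to define the axis, climbs at 1.10.

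Most matrix genes had steeper slopes than the Sox genes. Apart from Col2a1 and Acan, which define the level, all 18 other cartilage genes known as SOX9, SOX5 or SOX6 targets rose past the limit. So did 7.10% of all genes. The 18 were listed as cartilage genes, so their rise with cartilage level says nothing by itself about the Sox genes. Slopes of the 18 ran from 0.26 to 1.09 with a median of 0.89. The slope of 2 of the 18, Fgfr3 (0.26), a growth factor receptor of the growth plate, and Col27a1 (0.37), a minor collagen, was below those of Sox9 and Sox5. Hapln1, the link protein that binds aggrecan, had a slope of 0.91 and Matn1, a matrilin, 0.98. The interval of Sox9, from 0.43 to 0.56, did not reach that of Acan, from 0.86 to 0.95, but the difference between slopes was not itself tested.

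At equal cartilage level, 0 of 7 members passed the call rule, which called 275 of 26596 genes, or 1.03%. With no limit on the fold change, 0 of 7 members had an adjusted p below 0.1 in edgeR, beside 2.21% of all genes, and 1 of 7, Sox9, had one in DESeq2, beside 8.32%. Sox9 was the only member with an unadjusted p below 0.05, a limit that 14.5% of all genes passed. The median of the 7 was -0.08, beside 0.00 over all genes.

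Sox9 had a log2 fold change of 0.47 ± 0.12 (SE) in mutants at equal cartilage level, with a 95% interval from 0.17 to 0.77. Its unadjusted p was 0.00808 and its adjusted p 0.176 in edgeR, and DESeq2 gave 0.48 with an adjusted p of 0.0240. The estimate was above 0 under all 16 alternatives, from 0.37 to 0.74. The adjusted p was 2.21e-06 without E434 and 3.78e-06 without E433, and between 0.455 and 0.633 without any 1 of the other 4 libraries. Summing the 2 close libraries of each group gave an adjusted p of 1.0. Col2a1 and Acan are targets of SOX9, so the cartilage level is not a measure independent of Sox9, and a change of either gene per cell would enter it.

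Sox5 and Sox6 were on the same side as Sox9, at 0.24 ± 0.12 (SE) and 0.21 ± 0.12 (SE), with adjusted p of 0.413 and 0.490 in edgeR. Sox8 had -0.37 ± 0.17 (SE) and an adjusted p of 0.374. Sox4, Sox12 and Sox11 had -0.12, -0.12 and -0.08, with adjusted p from 0.412 to 0.842. Without E434 or without E433, 6 of the 7 members, all but Sox12, had an adjusted p below 0.1, and so did 29.4% of all genes in either fit.

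The members were also read against Col2a1 and Acan in the same library. For every 1000 counts of Col2a1 there were 33.3, 7.31 and 32.97 counts of Sox9 in E420, E434 and E435, and 111, 14.3 and 120 in E423, E433 and E440. The lowest ratio of each group was that of its cartilage-rich library, and the groups overlapped. Sox5 gave 8.52, 1.73 and 9.63 in controls and 26.2, 3.28 and 25.7 in mutants. Sox6 gave 68.9, 4.98 and 69.5 in controls and 278, 11.7 and 294 in mutants.

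All 14 ratios, of 7 members to Col2a1 and to Acan, were higher on average in mutants. Both references averaged lower in mutants, with log2 fold changes by group of -1.57 (Col2a1) and -1.28 (Acan). A gene at the same level in every library would therefore also give higher ratios, and this direction is not particular to the Sox genes. None of the 14 had groups that did not overlap, which 0.0851% of other genes had against Col2a1 and 0.0928% against Acan. The mean log2 ratio to Col2a1 was higher by 1.24 (Sox8) to 1.78 (Sox6), and that to Acan by 0.57 (Sox8) to 1.11 (Sox6). For Sox9 the differences were 1.52 against Col2a1 and 0.86 against Acan, with 2-sided exact permutation p of 0.30 and 0.50. With 3 libraries against 3 the smallest p possible is 0.10, and the 14 p-values ran from 0.30 to 0.50. Without mutant E433, the groups did not overlap in any of the 14. Col2a1 was then at 177 and 162 CPM in mutants against 582 to 14427 CPM in controls. Acan was at 19.9 and 19.6 CPM against 37.1 to 646 CPM. A gene at the same level in every library would separate as well, and the share of other genes was not counted without E433.

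**Figure D4:**
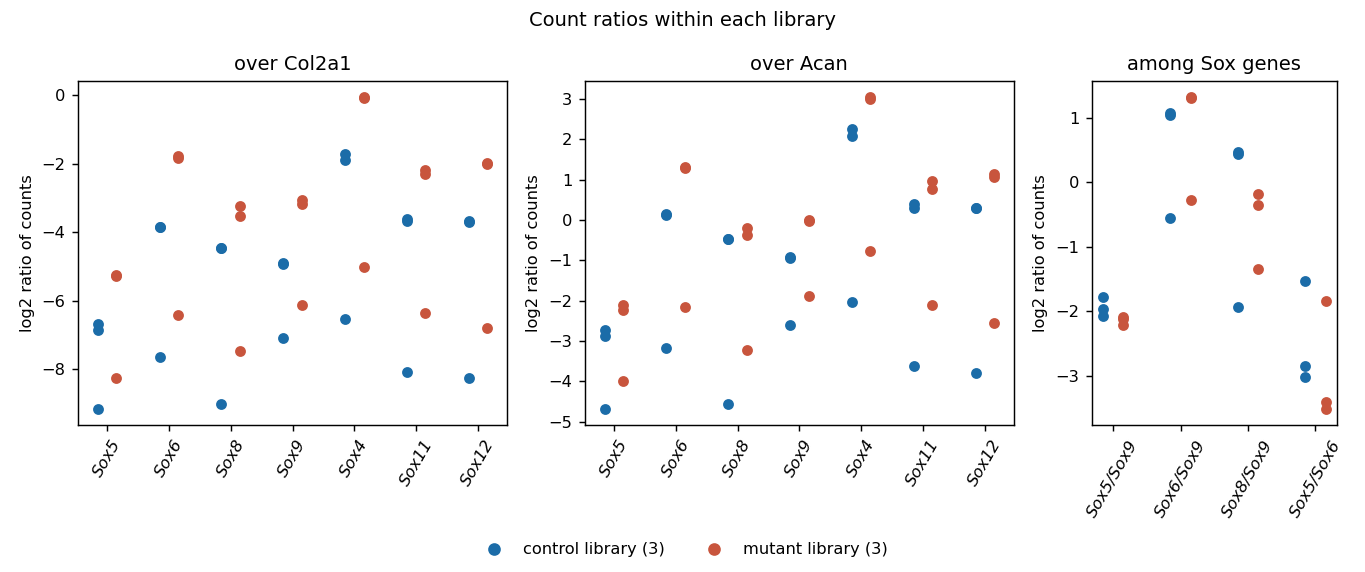
Log2 ratio of counts within each library, for each Sox gene over Col2a1 (left) and Acan (middle) and for 4 pairs of Sox genes (right), with controls in blue and mutants in red. The 2 cartilage-rich libraries give the low ratio of each group, and only Sox5 over Sox9 has groups that do not overlap.

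Among the ratios of the chondrocyte Sox genes, Sox5 over Sox9 was the steadiest. It spanned 0.44 on the log2 scale over all libraries, beside 1.88 (Sox6 over Sox9) to 2.41 (Sox8 over Sox9) for the others. For every 1000 counts of Sox9 there were 256, 237 and 292 counts of Sox5 in controls and 236, 230 and 215 in mutants. All 3 mutants lay below all 3 controls, by 0.20 on the log2 scale on average, with an exact permutation p of 0.10, the smallest possible. A ratio to Sox9 lower in every mutant was found for 0.209% of the 12929 other genes compared. Sox9 itself spanned 5.50-fold with overlapping groups, so a gene at the same level in every library also gives overlapping ratios. This share therefore does not measure how rare a difference by genotype is. The nearest libraries of the groups were E434 at 237 and E423 at 236, and with RSEM expected counts the groups overlapped.

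The other 3 ratios overlapped between groups. Sox6 over Sox9 gave 2068, 681 and 2106 per 1000 in controls and 2505, 822 and 2459 in mutants. Sox8 over Sox9 gave 1349, 261 and 1385 in controls and 779, 394 and 884 in mutants. Their mean log2 differences were 0.26 and -0.28, that of Sox5 over Sox6 was -0.46, and the exact permutation p ran from 0.50 to 0.60.

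Levels of different genes can be set side by side only per length, for which the TPM values (transcripts per 1000000) of RSEM were used. Sox4 was highest, at 48.5 ± 2.45 TPM (SD, n = 3) in controls and 44.5 ± 2.09 in mutants, and its lowest library, at 42.3, was above every value of every other member. Sox5 was lowest, at 4.03 ± 4.66 TPM in controls and 2.36 ± 1.72 in mutants, and was below Sox11 in every library but E434. Between them, Sox9, Sox12, Sox8 and Sox6 averaged 14.4, 14.1, 13.3 and 11.7 TPM over the 6 libraries, and neighbours in this order did not differ beyond their spread. Sox11 followed at 7.51 TPM.

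The place of Sox9 changed with the library. It ranked number 2 in E434 and E433, at 35.9 and 25.0 TPM, and number 5 or 6 in the other 4, at 6.04 to 7.04 TPM. Sox12 stayed within 12.1 to 15.4 TPM throughout. With counts per kilobase of exon in place of TPM, 5 of 7 kept their rank, and Sox6 and Sox11 changed places.

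**Figure D5:**
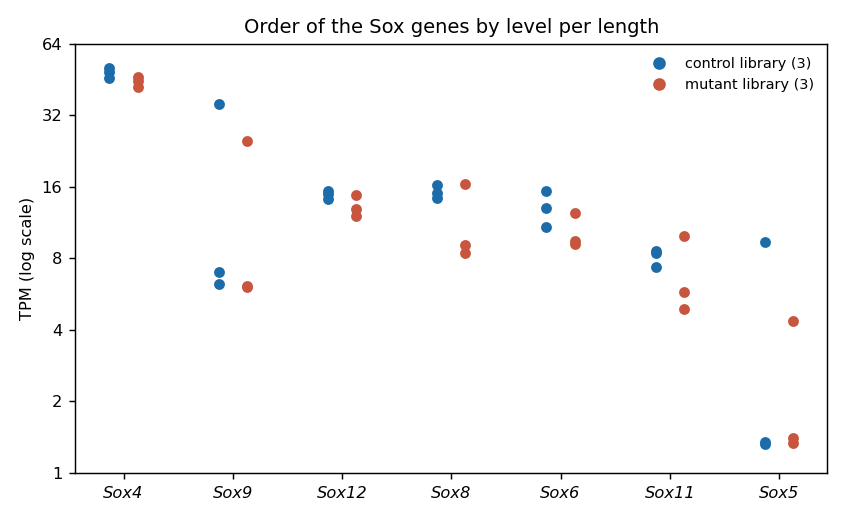
TPM of the 7 Sox genes in each library on a log axis, ordered by their mean over the 6 libraries, with controls in blue and mutants in red. Sox4 lies above all others, and Sox9 spans 6.04 to 35.9 TPM.

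Genes with the most similar pattern were sought among 13013 others with a mean of at least 5 CPM, by the root mean square difference of centred log2 CPM over the 6 libraries. S100b, a calcium-binding protein of chondrocytes and glia, was nearest to both Sox5 (0.0758) and Sox9 (0.0924). It stood at 8.70, 46.2 and 9.36 CPM in controls and at 8.15, 28.8 and 7.87 CPM in mutants. Sox9 and Sox5 were among the 3 nearest genes of each other (0.139). Rflna was also near Sox5, and Prkg2, a cGMP-dependent kinase of the growth plate, was also near Sox9.

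The other members had other neighbours. Those of Sox6 were Zdbf2, the basement membrane collagen Col15a1 and the laminin chain Lamc1, all within 0.0265. For Sox8 they were St6galnac3, Pcsk5 and Nsg1, and for Sox11 Stum, Adam19 and Ttbk2, all within 0.0592. The flat genes Sox4 and Sox12 lay within 0.0209 of Gm15163, Cc2d1b and Ppp1ccb and of Fam117b, Cblb and Csk. Among the members themselves, Sox8 and Sox11 were nearest to each other (0.182), as were Sox4 and Sox12 (0.0834). These are descriptions over 6 libraries that share their cartilage and tissue content.

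The regulators that act with SOX9 were read in the same fits. Of 14 such genes, 0 were called by group alone, beside 0.0639% of all genes. With cartilage level 6 rose and 1 fell, beside 7.10% of all genes rising and 15.4% passing in either direction. Wwp2, a ubiquitin ligase bound by SOX9, rose with a slope of 0.44, close to that of Sox9. At equal cartilage level 1 of 14 was called, beside 1.03% of all genes. This was Pax9, a sclerotome factor, lower in mutants by a log2 fold change of -1.21 ± 0.19 (SE) with an adjusted p of 0.0466 in edgeR. Pax9 stood at 1.78, 2.76 and 1.999 CPM in controls and at 0.722, 1.11 and 0.650 CPM in mutants. Its estimate was lower under every alternative run, with an adjusted p of 0.250 without E420, 0.333 without E435, 0.214 without E423, 0.222 without E440 and 0.957 with close libraries summed. Scx, a tendon factor, had -0.57 and an adjusted p of 0.0812. The median of the 14 at equal cartilage level was 0.01.

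Among the 20 matrix targets at equal cartilage level, 0 were called, beside 1.03% of all genes. In edgeR 3 had an adjusted p below 0.1, beside 2.21% of all genes, and all 3 were lower. They were Col11a1 (-0.68, adjusted p 0.0101), Col11a2 (-0.62, 0.0143), both chains of cartilage type XI collagen, and Matn3 (-0.87, 0.0820), a matrilin. Col11a1 lost this without any 1 of the 4 close libraries, with an adjusted p from 0.120 to 0.152. The median of the 18 targets other than Col2a1 and Acan was -0.05.

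The remaining Sox family served as a comparison. Of 13 other Sox genes, 10 were tested, while Sry and Sox14 had no counts and Sox1 had at most 2 in a library. None was called by group alone or at equal cartilage level, beside 0.0639% and 1.03% of all genes. The medians of the 10 log2 fold changes were 0.11 and 0.14 in these fits. None rose with cartilage level past the limit, beside 7.10% of all genes. Sox21, found in epidermis and hair, fell, with a slope of -0.81 and an adjusted p of 0.0159 in edgeR, and with a slope of -2.04 without E433. Its counts were 44, 0 and 80 in controls and 238, 31 and 230 in mutants, and the library with 0 was E434, where the 9 keratinocyte genes summed to 20.3 CPM. The part of skin in this slope was not tested. Sox10, the SoxE gene of Schwann cells and melanocytes, ran from 7.26 to 8.81 CPM in controls and from 8.28 to 12.4 CPM in mutants.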

How the data were processed

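RNA-Seq was run by the authors with a stranded mRNA kit and paired reads of 42 bases. Per the labels' processing notes, reads were aligned to GRCm38 with HISAT2 2.1.0 and counted with featureCounts 1.6.0. The authors deposited these counts per gene as raw numbers, and the command in the file header shows that read ends were counted singly, without regard to strand and without reads that map to several places. Expected counts and TPM were deposited by the authors from STAR 2.7.6 and RSEM 1.2.31. Their DESeq2 1.26.0 tables of fold changes and p-values, with 12 columns of per-sample values, were not used.

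Genes with at least 10 counts over 6 libraries entered edgeR 4.0.16 (R 4.3.3) with TMM scaling, by group alone or with the cartilage level as covariate, and p-values were adjusted by Benjamini-Hochberg over all genes. Log2 CPM used a prior count of 2. Log2 count ratios were compared by exact 2-sided permutation. Exon overlap was read from the count table, and sequences and their shared stretches from an older GENCODE release on the same build. Named genes are the members, the list genes, genes overlapping a member and the 3 nearest genes of each member. Alternatives were DESeq2 1.42.0, other scaling, filters, limits and cartilage measures, robust fitting, RSEM expected counts rounded to whole numbers, close libraries summed and each library left out. The members and lists were chosen with earlier results of these data known.

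On simulated data, the fit by group recovered 19 of 100 genes changed 2-fold and 97 of 100 changed 4-fold among 26126 genes, with 14 other calls. The fit at equal cartilage level recovered 88 and 100 among 26121, with 24 other calls. Every simulated gene had the same dispersion, and the changed genes were drawn from well-counted ones. No variation in cartilage was put into the simulation for the group fit. These shares therefore do not give the power for Sox9 and Sox5, whose SD within groups was 1.06 to 1.38 on the log2 scale. Depth limits no member, and intervals do not cover amplification of the same fragment.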

Additional observations from a re-analysis of the deposited data

How the results depend on the processing

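Calls over all genes depended on the processing, while the members did not pass the call rule by group under any alternative run. By group alone, 17 genes were called, and DESeq2's Wald test called 477, no low-count filter 37, a robust fit 35, RSEM expected counts 10, close libraries summed 0, an adjusted p limit of 0.01 0, and the fit without E434 and E433 2066. Leaving out 1 library gave 0 to 1087. At equal cartilage level 275 were called, against 526 by DESeq2, 4 with close libraries summed and 17 to 1749 without 1 library. The slope called 4102 genes, 310 with close libraries summed and 1745 to 9745 without 1 library. The count of ratios to Col2a1 and Acan with groups apart was 0, and 0 to 14 without 1 library. For ratios among Sox genes it was 1, then 0 with RSEM and 1 to 3 without 1 library. The cause was not tested.

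Signs turned for Sox6 by group (0.22 without E434 and E433) and for Sox11 at equal cartilage level (0.0150 with close libraries summed). Without 1 library, the range by group was -1.44 to 0.60 for Sox5, -0.16 to 0.30 for Sox6 and -1.31 to 0.86 for Sox9, that of Sox11 at equal cartilage level was -0.39 to 0.0430, and the slope of Sox12 ran from -0.00156 to 0.0120. The ratio of Sox8 ran from -0.28 to 2.60 over Col2a1 and from -0.78 to 1.55 over Acan, and those over Acan from -0.41 to 2.26 for Sox4, -0.47 to 1.84 for Sox11 and -0.41 to 2.17 for Sox12. Sox6 over Sox9 ran from -0.28 to 0.79, Sox8 over Sox9 from -1.08 to 0.13 and Sox5 over Sox6 from -1.0 to 0.0112. Where a library was left out, the lone pair of its group was assumed to vary like the other group. No paired analysis was possible because replicates were numbered in accession order only and no litter is given for any embryo.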

Other observations

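The mean transcript length that RSEM assigned to Sox6 and Sox5 varied between libraries, which shows how its reads were divided among isoforms. For Sox6 it was 4555 and 5009 bases in E420 and E435, and 6347 to 6569 bases in E434 and the 3 mutants. For Sox5 it ran from 3765 to 5787 bases with no division by genotype. TPM of these 2 genes depends on these estimates. Their CPM does not, but it is not adjusted for isoform length. For Sox6, E423 and E440 were above E420 and E435 in CPM and below them in TPM. For Sox5, E423 and E440 had 1.33 and 1.40 TPM against 1.35 and 1.32 in E420 and E435. Which measure is nearer to the number of molecules was not tested. Sox9, Sox4 and Sox11 have a single length of 4135, 4795 and 8311 bases.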
